A study of Mus musculus with 24 samples.

Results

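A set of 10 enzymes that build non-essential amino acids and one-carbon units was followed across 24 RNA-seq libraries of mouse chondrocytes. The 10 genes were chosen by enzyme function from the 17094 genes of the expression table; the rule used no measured value, but it was set with earlier results of these data known. They were Phgdh, Psat1 and Psph (serine synthesis), Shmt2, Mthfd2 and Aldh1l2 (mitochondrial glycine and one-carbon metabolism), Asns (asparagine), Cth (cysteine), and Aldh18a1 and Pycr1 (proline). All 10 passed the filter on low values and were tested among 12178 genes.

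The cells were wild-type primary chondrocytes isolated from cartilage by collagenase II digestion. They were cultured alone (normal culture) or in transwell chambers with primary dermal fibroblasts from skin (co-culture), and each culture was left without interleukin-1β (IL-1β) or given it at 10 ng/ml, beginning 24 h after attachment. RNA of the chondrocytes in the lower chamber was enriched for poly(A) mRNA after 36 h or 72 h, and each of the 8 resulting groups had 3 libraries. The comparison of interest to the study was chondrocytes with against without fibroblasts.

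Within that design, the groups were normal culture without IL-1β, normal culture with IL-1β, co-culture without IL-1β and co-culture with IL-1β, each at 36 h and at 72 h. The labels gave WT as the genotype of every group, and gave no age, sex or strain of the mice. Chondrocytes were kept in DMEM/F12 with ITS and serum and fibroblasts in alpha-MEM with serum; the medium of the co-culture chambers is not given in the sources used here, and an effect of medium and an effect of the fibroblasts cannot be told apart. Nothing in the labels says that the 3 libraries of a group came from separate animals or cultures, so the spread behind each p-value is that between libraries and may be technical.

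Serine is made from a glycolytic intermediate by Phgdh, Psat1 and Psph in turn. In mitochondria Shmt2 converts serine to glycine and hands a carbon to folate. Mthfd2 oxidizes that carbon further, and Aldh1l2 oxidizes it to carbon dioxide. Aldh18a1 and Pycr1 catalyse the opening and the closing step of proline synthesis from glutamate, and cartilage collagen is rich in glycine and proline. Several of these genes are textbook targets of the transcription factor ATF4, whose translation rises when amino acids are short or the endoplasmic reticulum is stressed. IL-1β is an inflammatory cytokine that lowers matrix gene expression in cultured chondrocytes.

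The DNA element bound by ATF4 with C/EBP partners has the core TGATGNAA, where N is any base, and it was searched on both strands of the 250 bases before the start of each gene in RefSeq (build GRCm38.p6). Windows were found for 8 of the 10 genes, Aldh1l2 and Cth having none. The letters occurred in the windows of 2 of the 8 genes, and in 2.30% of the windows of all genes in the expression table. These 2 stretches are shown because asparagine synthetase is the classical example of a gene carrying the element, with the element in capitals, 5′ to 3′ on the gene's own (minus) strand.
Asns, chr6:7693214-7693243, element 23 to 16 bases before the start: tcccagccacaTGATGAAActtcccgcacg
Pycr1, chr11:120643833-120643862, element 103 to 96 bases before the start: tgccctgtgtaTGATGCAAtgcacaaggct
A match describes letters and not binding, and its absence for the other 6 genes says only that these letters were not within 250 bases of the RefSeq start. The GENCODE spans given below reach past that start for Phgdh, Psat1, Psph, Mthfd2, Asns and Pycr1. The Asns stretch shown lies within the GENCODE span of Asns, and the windows of Mthfd2 and Psat1 lie wholly within the spans of those genes.

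All 10 genes are protein-coding and lie on the minus strand in GENCODE vM21 (GRCm38). The serine genes lie at chr3:98313170-98339990 (Phgdh), chr19:15904678-15947337 (Psat1) and chr5:129765558-129787449 (Psph). The mitochondrial genes lie at chr10:127517123-127522444 (Shmt2), chr6:83305691-83325908 (Mthfd2) and chr10:83487450-83534140 (Aldh1l2). The others are Asns (chr6:7675169-7693254), Cth (chr3:157894248-157925077), Aldh18a1 (chr19:40550257-40588463) and Pycr1 (chr11:120635712-120643769). Counting choices bear on these genes (the use of strand, the treatment of reads with several matches) and are not given in the sources used here. Values of Shmt2, Psph and Aldh1l2, which overlap Ndufa4l2, Cct6a and D10Wsu102e on the other strand, are therefore uncertain to that extent, as are those of Phgdh, Psat1 and Aldh18a1, which have or overlap annotated pseudogenes, and of Mthfd2 and Cth, which overlap gene models marked as awaiting experimental evidence.

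The values are FPKM (fragments per kilobase of gene, scaled to the mapped fragments of the library), which sum to 438242 to 506621 in a library. Between 11335 and 11607 genes reached 1 FPKM in a library. No interval for counting error is given, since the depth is unknown. Libraries of a group correlated at 0.994 to 0.999 on the log2(FPKM + 1) scale. One library, normal culture with IL-1β at 72 h replicate 1, stood apart from the other 2 of its group for most of the 10 genes, and the called changes, medians and counts of the 10 genes that moved by over 1.5 times without it are given with and without it. Each of the 8 listed chondrocyte markers reached 1 FPKM in some library. Col2a1, the cartilage collagen, measured 289 to 309 FPKM in untreated normal culture at 36 h and 112 to 119 FPKM with IL-1β.

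**Figure D1:**
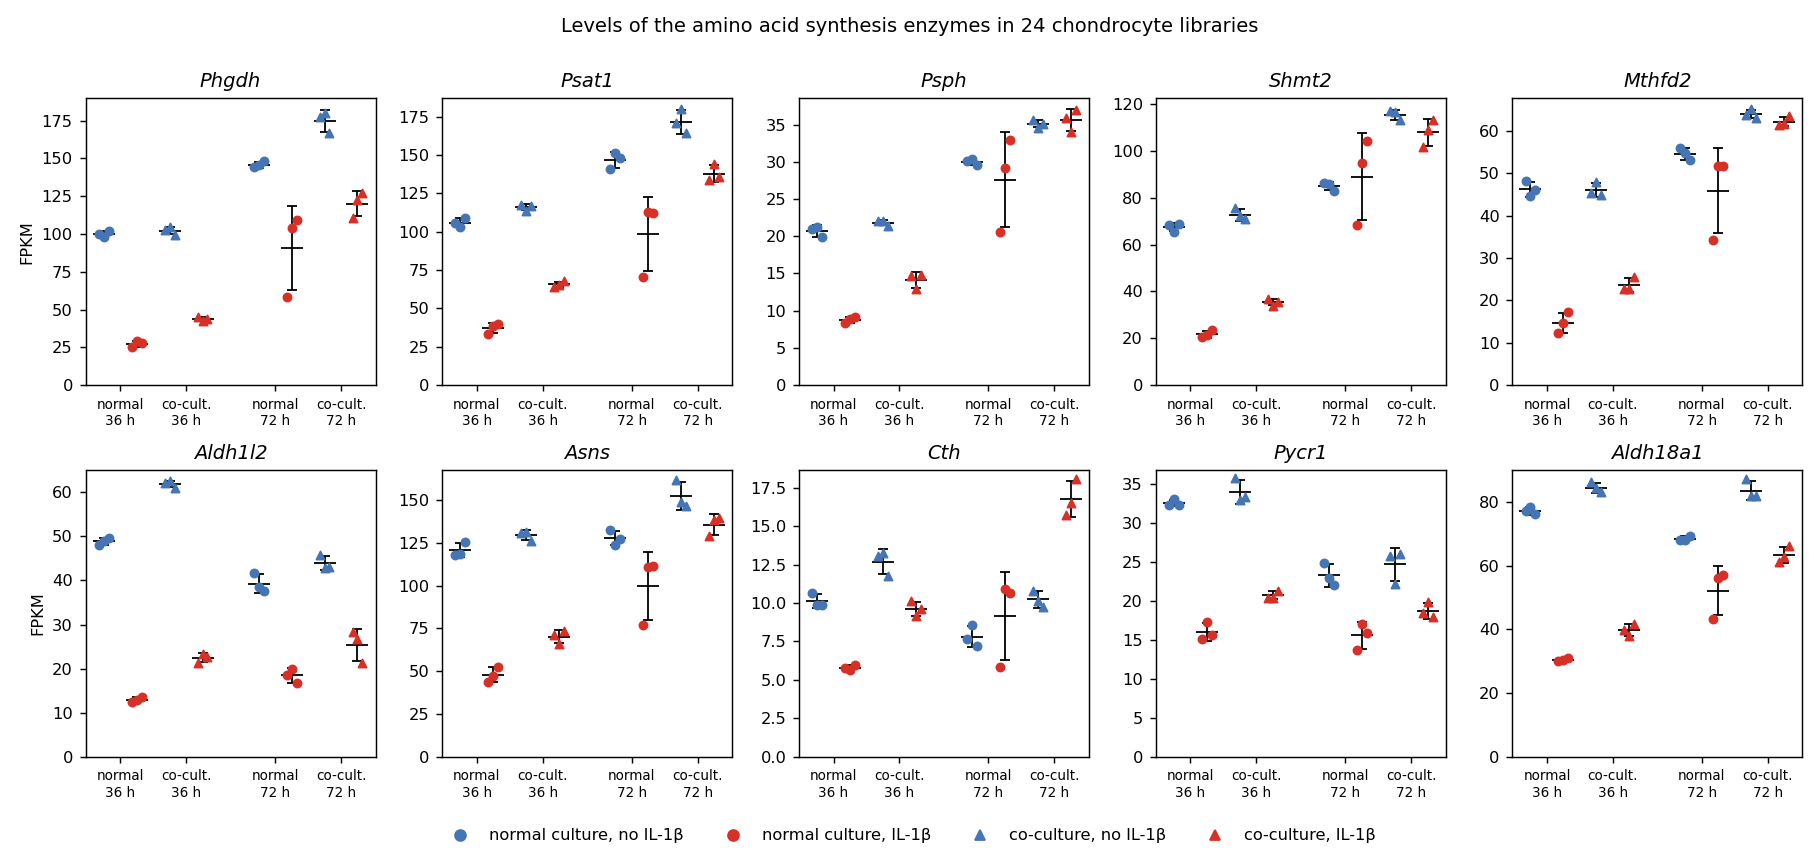
FPKM (y axis, from 0) of each of the 10 enzymes in the 24 libraries, by culture and time (x axis). Blue points are libraries without IL-1β and red points libraries with IL-1β, circles are normal culture and triangles co-culture, and black bars give the mean ± SD of 3 libraries. At 36 h the red points lie below the blue ones of the same culture in every panel and the red triangles above the red circles, while at 72 h 1 red circle lies well below the other 2 in most panels.

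At 36 h IL-1β lowered all 10 enzymes in normal culture. Phgdh and Aldh1l2 fell most, to 27.2% and 26.6% of the untreated mean, and Cth least, to 57.0%. All 10 passed as lower, where 41.5% of all tested genes did so and 25.9% passed as higher (limma, adjusted p under 0.05). The median change of the 10 was -1.40 on the log2(FPKM + 1) scale, against -0.09 over all tested genes. Since these are bulk libraries, fewer cells of a type and less RNA per cell cannot be told apart.

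The serine branch fell at each of its steps. Phgdh, the enzyme that commits 3-phosphoglycerate to serine, measured 99.9, 97.8 and 102.1 FPKM without IL-1β and 25.1, 28.9 and 27.7 FPKM with it. The 6 values formed separate groups, and the log2 change was -1.84 (SE 0.13, limma adjusted p = 4.27e-11). Psat1, the aminotransferase of the pathway, went from 106, 103 and 109 FPKM to 33.4, 38.5 and 39.6 FPKM, a log2 change of -1.49. Psph, the phosphatase that releases serine, went from 20.9, 21.3 and 19.9 FPKM to 8.33, 8.84 and 9.12 FPKM, a log2 change of -1.15. In all 3 genes the highest treated library stayed far below the lowest untreated one.

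The mitochondrial enzymes fell by a similar amount. Shmt2, which makes glycine from serine, went from 68.4, 65.4 and 68.8 FPKM to 20.5, 21.5 and 23.4 FPKM (log2 change -1.59). Mthfd2, the methylene-tetrahydrofolate dehydrogenase of mitochondria, went from 48.1, 44.6 and 46.0 FPKM to 12.4, 14.6 and 17.2 FPKM (log2 change -1.60). Aldh1l2, which oxidizes formyl-tetrahydrofolate, went from 48.1, 48.9 and 49.6 FPKM to 12.5, 12.8 and 13.6 FPKM (log2 change -1.84). None of the 3 had overlapping groups, as was so for 73.0% of all tested genes. The treated libraries spread most for Mthfd2, with an SD of 2.43 FPKM on a mean of 14.7 FPKM.

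Asns, which makes asparagine from aspartate and glutamine, was the most highly expressed of the 10 per length at 36 h in untreated normal culture. Its 3 values there were 118, 119 and 125 FPKM, and with IL-1β they were 43.8, 47.4 and 52.5 FPKM (log2 change -1.32). In the proline branch, Aldh18a1 went from 77.0, 78.4 and 76.1 FPKM to 30.1, 30.4 and 31.1 FPKM (log2 change -1.31), and Pycr1 from 32.3, 33.0 and 32.3 FPKM to 15.1, 17.3 and 15.6 FPKM (log2 change -0.98). Cth, which releases cysteine from cystathionine, had the lowest level of the 10, with 10.7, 9.87 and 9.90 FPKM untreated and 5.76, 5.63 and 5.97 FPKM with IL-1β. Its log2 change of -0.72 (SE 0.13) had the highest adjusted p of the 10 in limma, 3.68e-05. The treated and untreated libraries did not overlap for any of the 10 genes, as was so for 73.0% of all tested genes.

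In co-culture IL-1β also lowered all 10 enzymes at 36 h; the test of the difference from normal culture is given with the interaction. All 10 passed as lower, where 35.3% of the tested genes did and 23.4% passed as higher. The median change was -0.91, against -0.06 over all genes. Phgdh went from 103, 104 and 99.6 FPKM to 44.9, 42.8 and 44.1 FPKM, which is 43.0% of the untreated mean. Aldh1l2 showed the largest change, from 62.1, 62.4 and 61.1 FPKM to 21.3, 23.3 and 22.7 FPKM, a log2 change of -1.42. Cth kept 75.8% of its untreated mean, and its limma adjusted p of 0.0177 was the highest of the 10; it did not pass when co-culture without IL-1β replicate 1 or 2, or co-culture with IL-1β replicate 2, was left out (log2 change -0.33 to -0.35).

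**Figure D2:**
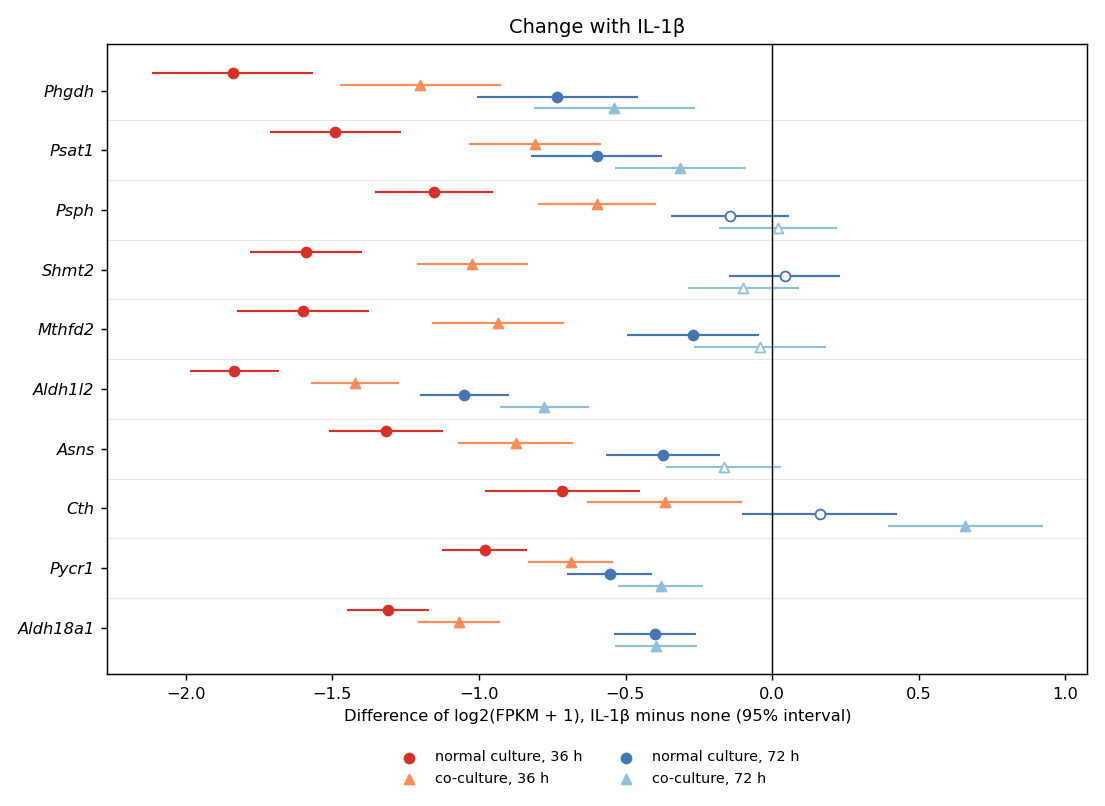
Difference of log2(FPKM + 1) between libraries with and without IL-1β (x axis) for each enzyme (y axis), with 95% intervals from limma. Circles are normal culture, triangles co-culture, red and orange 36 h, and dark and light blue 72 h; filled symbols passed at an adjusted p under 0.05. All 20 symbols at 36 h are filled and negative, and the 72 h symbols lie closer to 0 except for Cth in co-culture. Cth in both cultures, Shmt2 in normal culture and Psph in co-culture lie on the positive side at 72 h. Of these only Cth in co-culture is filled.

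By 72 h the IL-1β effect was less negative for every enzyme. In normal culture 7 of the 10 passed as lower, where 40.3% of tested genes did and 23.1% passed as higher, and Psph, Shmt2 and Cth did not pass. In co-culture 5 passed as lower, where 30.6% did, and 1, Cth, passed as higher, where 18.5% did. The median of the 10 was -0.39 in normal culture, where that of all genes was -0.08, and -0.24 in co-culture, where it was -0.06. Treated and untreated libraries did not overlap for 7 of the 10 in each culture. The same was so for 61.6% of all tested genes in normal culture and 56.9% in co-culture, so these separations were common in the data. Without replicate 1 of normal culture with IL-1β, 6 passed as lower and 2 as higher in normal culture, where 39.2% and 23.3% of all genes did, and the median of the 10 was -0.23.

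Aldh1l2 remained lowered at both times. At 72 h it measured 41.7, 38.4 and 37.6 FPKM in untreated normal culture and 18.5, 20.01 and 16.8 FPKM with IL-1β, a log2 change of -1.05 (SE 0.07, limma adjusted p = 3.29e-11). In co-culture it measured 45.8, 42.8 and 43.1 FPKM without and 28.2, 26.6 and 21.3 FPKM with IL-1β, a log2 change of -0.78. The treated libraries lay below the untreated ones in both cultures.

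Phgdh and Psat1 were lower with IL-1β in both cultures at 72 h, by -0.73 and -0.60 in normal culture and by -0.54 and -0.31 in co-culture. Phgdh measured 144, 145 and 148 FPKM in untreated normal culture and 58.6, 104 and 109 FPKM with IL-1β, so that no libraries overlapped but replicate 1 of the treated group lay far below its 2 partners. Without that library the changes in normal culture were -0.45 for Phgdh and -0.38 for Psat1, and both still passed. The same library was the lowest of its group for 9 of the 10 genes, Aldh1l2 being the exception, and stood at 54.9% of the mean of the other 2 for Phgdh and at 54.4% for Cth. Its summed level of 10 proliferation genes was low as well, 381 FPKM against 502 and 505 FPKM; the part of that difference in the members' values was not tested. Psat1 in co-culture did not pass without co-culture untreated replicate 2 or treated replicate 1 or 3 (log2 change -0.28 to -0.30).

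Shmt2, the glycine-forming enzyme, was level with its untreated libraries on average by 72 h in normal culture. At 72 h it measured 86.2, 85.9 and 83.1 FPKM in untreated normal culture and 68.2, 94.8 and 104 FPKM with IL-1β, with 1 treated value below and 2 above all untreated ones. Its log2 change was 0.04 (95% interval -0.15 to 0.23, limma adjusted p = 0.698), and 0.22, which passed, without replicate 1 of the treated group. Psph (-0.14) did not pass and had overlapping libraries, 30.1, 30.4 and 29.6 FPKM untreated and 20.5, 29.2 and 33.0 FPKM treated. Mthfd2 passed at -0.27 (limma adjusted p = 0.0350), and no longer passed at -0.08 without that replicate. Leaving out any 1 of the 3 untreated libraries also ended the Mthfd2 call, at -0.25 to -0.29.

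Asns was lower with IL-1β at 72 h in normal culture, with 132, 124 and 127 FPKM untreated and 76.8, 111 and 112 FPKM treated (log2 change -0.37, and -0.20, which passed, without treated replicate 1). In co-culture its change of -0.16 did not pass. Aldh18a1 fell by 0.40 on the log2 scale in both cultures, and Pycr1 by 0.55 in normal culture and by 0.38 in co-culture. The treated libraries of both proline genes lay below the untreated ones in both cultures. Groups without overlap, in either direction, were found for 61.6% of all tested genes in normal culture and 56.9% in co-culture.

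Cth changed sign in co-culture. At 72 h it measured 10.8, 10.1 and 9.76 FPKM in untreated co-culture and 15.7, 16.5 and 18.04 FPKM with IL-1β, which is 164% of the untreated mean, and the groups did not overlap. The log2 change was 0.66 (SE 0.13, limma adjusted p = 0.000177). In normal culture it was 0.16 and did not pass, with 7.68, 8.57 and 7.2 FPKM untreated and 5.87, 10.9 and 10.7 FPKM treated; without replicate 1 of the treated group it was 0.42 and passed.

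The difference of the IL-1β effect between 72 h and 36 h was tested directly. It was positive for all 10 genes in both cultures and passed for all 10 in both, where 23.7% of tested genes passed in that direction in normal culture and 14.1% in co-culture (21.6% and 14.8% in the other). In normal culture it ran from 0.43 (Pycr1) to 1.63 (Shmt2) on the log2 scale, with a median of 0.93 against 0.01 over all genes. In co-culture it ran from 0.31 (Pycr1) to 1.02 (Cth), with a median of 0.67 against 0.00. The Pycr1 difference in co-culture (limma adjusted p = 0.0217) did not pass without untreated 36 h replicate 1, untreated 72 h replicate 2 or treated 72 h replicate 2 of the co-culture, at 0.24 to 0.27.

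Over time without IL-1β, the 3 serine genes rose and Pycr1 fell in both cultures. In normal culture Phgdh, Psat1, Psph and Shmt2 were higher at 72 h than at 36 h, by 0.33 to 0.54, and Aldh1l2, Cth, Pycr1 and Aldh18a1 were lower, by -0.17 to -0.47. Thus 4 passed as higher, where 33.1% of all genes did, and 4 as lower, where 25.3% did, so that both counts were near the shares of all genes. The median of the 10 was 0.16, against 0.03 over all genes. The Aldh18a1 call ended when any 1 of the 6 libraries was left out, and the Cth call without 36 h replicate 1 or 72 h replicate 1 or 3. In untreated co-culture 6 passed as higher and 2, Aldh1l2 and Pycr1, as lower, where 36.6% and 24.9% of all genes did; the Asns call there (0.23) ended without any 1 library except 72 h replicate 3, with no filter on low values and under median-of-ratios scaling. With IL-1β, 9 were higher at 72 h in normal culture and 8 in co-culture, where 37.1% and 35.4% of all genes did (32.0% and 28.9% were lower), and Pycr1 passed in neither (-0.04 and -0.14). Shmt2 in normal culture with IL-1β reached 409% of its 36 h level. These comparisons use the same libraries as the IL-1β comparisons.

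Other lists moved over the same interval in untreated normal culture. All 10 proliferation genes rose (median 0.88) and 5 of 6 tested macrophage and myeloid genes rose (0.88), where 33.1% of all genes did. Of 8 dermal fibroblast markers 6 fell and 2 rose (-1.26), and all 6 skeletal muscle markers fell (-1.84), where 25.3% of all genes fell. In untreated co-culture the same lists had medians of 1.09, 0.81, -0.97 and -1.56. Their part in the members' changes over time was not tested.

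Co-culture with fibroblasts raised all 10 enzymes in the presence of IL-1β at 36 h. All 10 passed as higher, where 6.38% of the tested genes did and 4.17% passed as lower, and none of the 10 had overlapping libraries, as was so for 32.7% of all tested genes. The median difference was 0.65 on the log2 scale, against 0.00 over all genes. The mean of each gene in co-culture with IL-1β stayed below its mean in untreated normal culture, although the Cth libraries of these 2 groups overlapped.

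Psat1 rose most, from 33.4, 38.5 and 39.6 FPKM in normal culture with IL-1β to 64.2, 65.3 and 67.6 FPKM in co-culture with IL-1β. That is 177% of the normal culture mean, a log2 difference of 0.81 (SE 0.11, limma adjusted p = 3.14e-05). Aldh1l2 rose to 173% (0.75), Cth to 166% (0.65), and Phgdh, Psph, Shmt2 and Mthfd2 each to 161% or 162% (0.63 to 0.68). Asns, at 71.3, 65.8 and 73.2 FPKM in co-culture, rose to 146% (0.54). The proline genes rose least, Aldh18a1 to 130% and Pycr1 to 129%, with log2 differences of 0.37 and 0.35. These differences share the libraries of normal culture with IL-1β with the IL-1β comparison above.

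At 72 h co-culture with IL-1β again had higher means for all 10 genes, but the call depended on how the spread was estimated. All 10 passed in the fit over 24 libraries, where 7.22% of tested genes passed as higher and 5.26% as lower, with a median of 0.44 against 0.02. Shmt2 had overlapping libraries and the other 9 did not, as was so for 19.2% of all genes. None of the 10 passed when only the 6 libraries compared were fitted, with limma adjusted p of 0.303 to 0.455, although 8 had an unadjusted p under 0.05; with the replicate number as a block added to that fit, none passed and all 10 had an unadjusted p under 0.05. Without normal culture with IL-1β at 72 h replicate 1, 5 of 10 passed in the fit over the other libraries, where 2.83% of all genes passed as higher, and the median was 0.23.

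Those 5 were Cth (0.59), Aldh1l2 (0.44), Psat1 (0.29, and 0.51 with all libraries), Asns (0.28, and 0.46 with all) and Aldh18a1 (0.16, and 0.29 with all). Cth, at 15.7, 16.5 and 18.04 FPKM in co-culture and 5.87, 10.9 and 10.7 FPKM in normal culture, showed the largest difference, 183% of the normal culture mean with all libraries. Phgdh measured 111, 123 and 127 FPKM in co-culture, just above the 2 higher libraries of normal culture, and its log2 difference went from 0.45 to 0.17, which did not pass, without the outlying library. Psph (0.38 with and 0.19 without it), Shmt2 (0.30 and 0.12), Mthfd2 (0.45 and 0.26) and Pycr1 likewise did not pass without it. Phgdh and Shmt2 also lost their calls without co-culture replicate 2 or 3, and Pycr1 without replicate 2.

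Without IL-1β, few of the 10 passed for co-culture in the fit over 24 libraries. At 36 h only Aldh1l2 passed, from 48.1, 48.9 and 49.6 FPKM to 62.1, 62.4 and 61.1 FPKM (log2 difference 0.33, limma adjusted p = 0.00277), where 6.28% of tested genes passed as higher and 9.2% as lower. The other 9 differences ran from -0.01 (Mthfd2) to 0.30 (Cth). The median of the 10 was 0.10, against -0.03 over all genes, and 7 had no overlapping libraries, as was so for 42.1% of all genes. At 72 h Shmt2 rose from 86.2, 85.9 and 83.1 FPKM to 117, 117 and 113 FPKM (0.44, limma adjusted p = 0.00925) and Aldh18a1 to 122% (0.28, limma adjusted p = 0.0229), where 1.72% of tested genes passed as higher and 1.68% as lower. The other 8 had higher means in co-culture, by 0.08 to 0.35, and did not pass. The median of the 10 was 0.24, against -0.01 over all genes, and 9 had no overlapping libraries, as was so for 33.8% of all genes. With the 6 compared libraries fitted alone, 5 passed at 36 h and 8 at 72 h, all higher, where 9.89% and 5.88% of all genes passed as higher. The Aldh18a1 call at 72 h ended when any 1 of the libraries other than co-culture replicate 2 was left out.

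**Figure D3:**
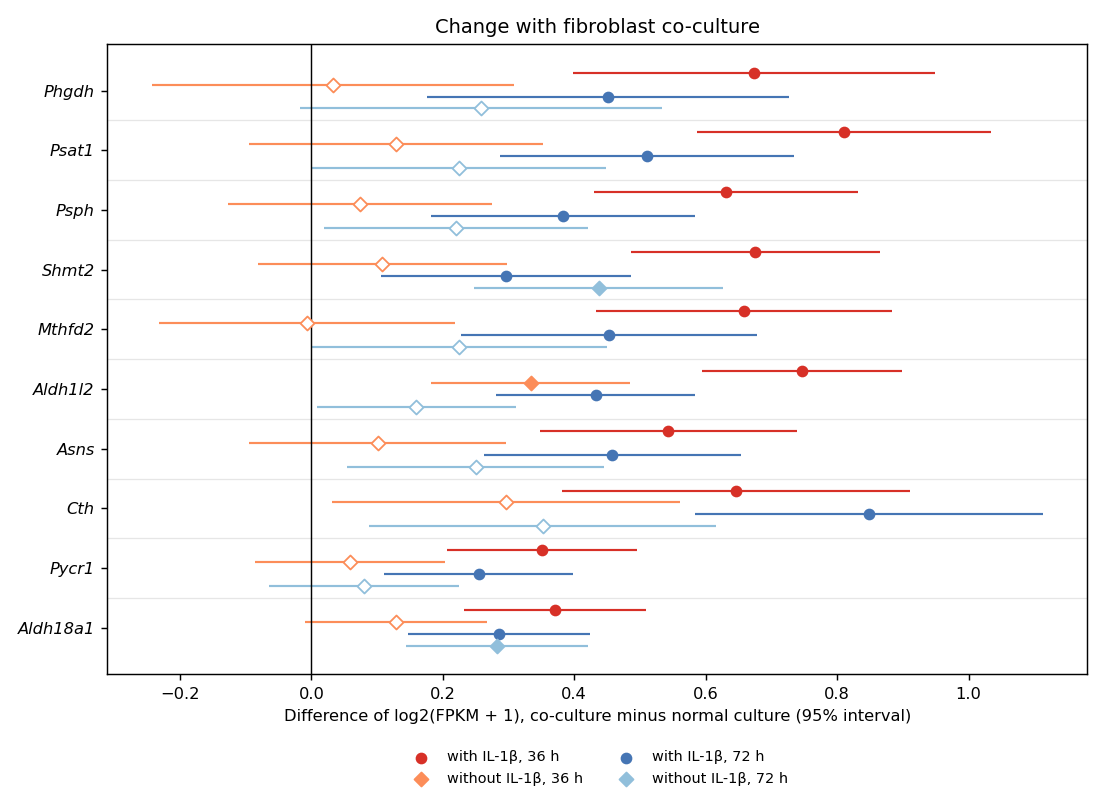
Difference of log2(FPKM + 1) between co-culture and normal culture (x axis) for each enzyme (y axis), with 95% intervals from limma over 24 libraries. Circles are with IL-1β (red 36 h, dark blue 72 h) and diamonds without (orange 36 h, light blue 72 h); filled symbols passed at an adjusted p under 0.05. All 20 circles are filled and positive, and 3 of the 20 diamonds are filled.

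The interaction asks whether the IL-1β change differed between the cultures. At 36 h it was positive for all 10 genes, so that IL-1β lowered each less in co-culture, and it passed for 7, where 4.73% of tested genes passed in that direction and 2.23% in the other. The 7 were Psat1 (0.68, SE 0.15, limma adjusted p = 0.00762), Mthfd2 (0.67), Phgdh (0.64), Shmt2 (0.57), Psph (0.56), Asns (0.44) and Aldh1l2 (0.41). Cth (0.35), Pycr1 (0.29) and Aldh18a1 (0.24) did not pass. The median was 0.50, against 0.03 over all genes. Psat1, Psph, Shmt2 and Mthfd2 passed in all 21 alternative fits, Aldh1l2 in 20 (not on the TPM scale, adjusted p = 0.0607), and Phgdh and Asns in 9.

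The calls of Phgdh and Asns were close to the threshold (limma adjusted p = 0.0406 and 0.0469). Phgdh lost its call without any 1 of the 12 libraries except normal culture with IL-1β replicate 2, and Asns without any 1 except co-culture with IL-1β replicate 2 and normal culture with IL-1β replicate 3. Their values then stayed between 0.58 and 0.66 for Phgdh and between 0.38 and 0.46 for Asns.

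At 72 h none of the 10 interactions passed in limma, where 1.68% of tested genes passed as higher and 1.43% as lower; 2, those of Aldh1l2 and Cth, had an unadjusted p under 0.05. The values ran from -0.14 (Shmt2) to 0.50 (Cth), with a median of 0.20. Without normal culture with IL-1β replicate 1 the median was 0.03 and Shmt2 passed as negative (-0.32, limma adjusted p = 0.0193); without its replicate 2 the median was 0.31 and Cth passed as positive (0.64). Whether the interaction differed between 36 h and 72 h was not tested.

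Across the 24 libraries most of the 10 genes varied together, as a description of libraries that share their treatments. Pearson's r of log2(FPKM + 1) between 2 members had a median of 0.780 over 45 pairs, the highest being 0.990 for Phgdh with Psat1 and the lowest 0.212 for Psph with Pycr1. Asns was closest to the mean of the other 9 (r = 0.994), and Pycr1 (0.535) and Cth (0.632) were farthest from it. The range over libraries was widest for Phgdh, from 25.1 to 180 FPKM, which is 7.199-fold, and narrowest for Pycr1, from 13.7 to 35.7 FPKM, which is 2.60-fold. The lowest library belonged to normal culture with IL-1β at 36 h for 9 of the 10.

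The 5 genes outside the list whose log2(FPKM + 1) followed the mean of the standardized members most closely over the 24 libraries were Rpl22l1 and Cyb5r1 (r = 0.987 each), Eif2s2 and Pck2 (0.984 each) and Hspa9 (0.980). Rpl22l1 is a ribosomal protein paralog, Eif2s2 a subunit of translation initiation factor eIF2, Pck2 the mitochondrial phosphoenolpyruvate carboxykinase and Hspa9 a mitochondrial chaperone. Among genes of the ATF4 pathway, r is given only for Chac1 (0.966), Trib3 (0.951), Atf4 (0.938) and Ddit3 (0.856). Each of these was lower after IL-1β at the earlier time, when others of that pathway, such as Cebpb, were higher. The values therefore do not describe the pathway as a whole.

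Of the ATF4 pathway list of 17 regulators and responders, 12 fell and 4 rose with IL-1β at 36 h in normal culture, where 41.5% of all genes fell and 25.9% rose, with a median of -0.45. In co-culture 11 fell and 2 rose, where 35.3% and 23.4% of all genes did. Atf4 itself, the transcription factor, went from 215 ± 14.5 to 100 ± 5.89 FPKM (SD, n = 3) in normal culture, a log2 change of -1.09, and by -0.64 in co-culture. Trib3, a pseudokinase that feeds back on ATF4, went from 42.8 ± 0.65 to 5.31 ± 0.89 FPKM (-2.80). Chac1, which degrades glutathione, fell by 2.10 and Ddit3, the stress factor CHOP, by 1.60.

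At 72 h the Atf4 changes of 0.05 in normal culture and -0.02 in co-culture did not pass, and 8 of the 17 fell and 6 rose in normal culture, where 40.3% and 23.1% of all genes did. Cebpb, a partner of ATF4, rose by 1.85 there. With IL-1β at 36 h co-culture raised 9 of the 17 and lowered 1, where 6.38% and 4.17% of all genes changed so; those raised included Trib3 (0.96), Cebpb (0.55), Chac1 (0.49) and Atf4 (0.35, limma adjusted p = 0.00170). The interaction at 36 h passed as positive for 6 and negative for 2, where 4.73% and 2.23% of all genes did. That of Atf4 was 0.46 (limma adjusted p = 0.00428). At 72 h with IL-1β co-culture raised 3 of the 17, and none without normal culture with IL-1β replicate 1, where the share of all genes raised went from 7.22% to 2.83%.

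Among 12 amino acid transporters, 9 fell and 1 rose with IL-1β at 36 h in normal culture, where 41.5% of all genes fell and 25.9% rose. Slc7a5, the large neutral amino acid exchanger, went from 43.7 ± 0.81 to 7.71 ± 0.72 FPKM (SD, n = 3, log2 change -2.36), and the glutamine carrier Slc1a5 fell by 1.13. The exception was Slc7a11, the cystine importer, which went from 1.23 ± 0.11 to 6.58 ± 0.68 FPKM (1.76). Co-culture with IL-1β raised 6 of the 12 at 36 h, where it raised 6.38% of all genes, and lowered none; Slc7a5 rose by 0.77. At 72 h it raised 8, where it raised 7.22% of all genes, and 3 without normal culture with IL-1β replicate 1, where it raised 2.83%.

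The rest of serine, glycine and one-carbon metabolism had 20 tested genes of 23 listed. With IL-1β at 36 h in normal culture 13 fell and 2 rose, where 41.5% of all genes fell and 25.9% rose. The median was -0.37, and Mat2a and Shmt1 (-0.96 each) and Aldh1l1 (-0.88) were among those that fell. Mat2a makes S-adenosylmethionine, and Shmt1 and Aldh1l1 are the cytosolic counterparts of Shmt2 and Aldh1l2. With IL-1β at 36 h co-culture raised 3 and lowered 2 of the 20, where it raised 6.38% and lowered 4.17% of all genes, Mthfd1l, the mitochondrial formate producer, rising by 0.57.

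Of the other 19 tested genes of proline, glutamate, aspartate and cysteine metabolism, 10 fell and 5 rose with IL-1β at 36 h in normal culture, where 41.5% of all genes fell and 25.9% rose, so that the share that rose was near that of all genes. Their median was -0.16, and on the TPM scale, where 21 were tested, 12 fell and 3 rose. Ass1, which joins citrulline and aspartate, went from 18.9 ± 0.87 to 201 ± 11.1 FPKM (SD, n = 3, log2 change 3.34), and Aldh4a1, a proline breakdown enzyme, rose by 1.11. Bcat1 (-0.95) and Gpt2 (-0.86), both aminotransferases, fell. Co-culture with IL-1β raised 3 of the 19 and lowered none at 36 h, where it raised 6.38% of all genes.

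**Figure D4:**
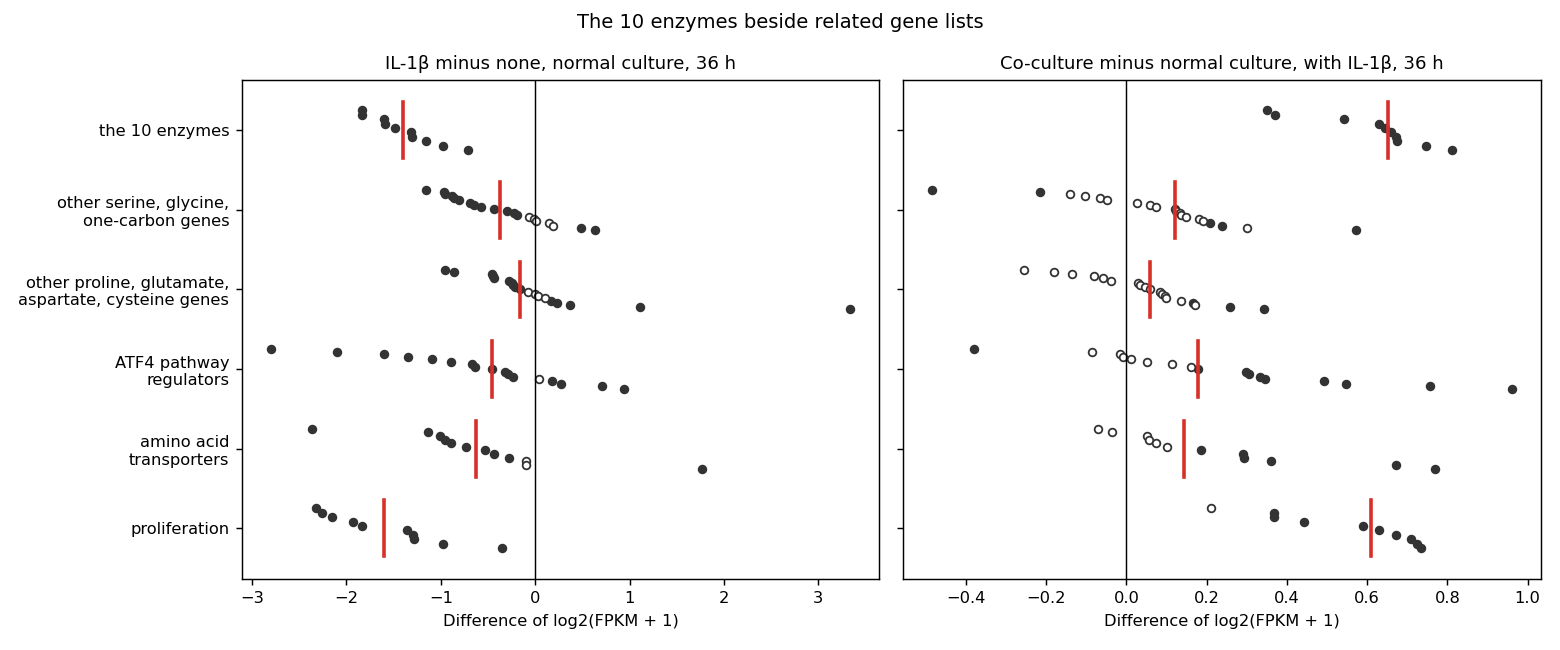
Difference of log2(FPKM + 1) (x axis) of each gene in the 10 enzymes and in 5 related lists (y axis), for IL-1β in normal culture at 36 h (left) and for co-culture with IL-1β at 36 h (right). Filled points passed at an adjusted p under 0.05 and red bars are the list medians. The enzymes and the proliferation genes have medians of -1.40 and -1.60 on the left and 0.65 and 0.61 on the right, farther from 0 than the other lists.

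Proliferation genes moved in the same directions as the enzymes in these comparisons. The summed level of the 10 listed proliferation genes was 317 to 335 FPKM in untreated normal culture at 36 h, 121 to 132 FPKM with IL-1β and 171 to 181 FPKM with IL-1β in co-culture. At 36 h all 10 fell with IL-1β in normal culture, 9 rose with co-culture under IL-1β and the interaction passed as positive for 9, where 41.5%, 6.38% and 4.73% of all genes did. At 72 h the sum was 655 to 727 FPKM in untreated normal culture, 381 to 505 FPKM with IL-1β and 539 to 546 FPKM with IL-1β in co-culture. Co-culture under IL-1β raised 6 of the 10 at 72 h, where it raised 7.22% of all genes, and lowered 0. Without normal culture with IL-1β at 72 h replicate 1 it raised 2. All genes called in either direction then went from 1520 to 613. The part of proliferation in the members' values was not tested.

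Markers of other cells were measured beside these results. The 8 dermal fibroblast markers were measured in normal culture too, where the design had no fibroblasts, and summed there to 3186 to 3333 FPKM without and 4829 to 5030 FPKM with IL-1β at 36 h. Col3a1 made up 2110 to 2251 FPKM of the former and 1734 to 1904 FPKM of the latter. Of the 8 markers, 4 passed as higher and 3 as lower with IL-1β there, where 25.9% and 41.5% of all genes did. Their median log2 change was 0.15. In co-culture with IL-1β at 36 h the 8 markers summed to 4173 to 4267 FPKM, below normal culture. The 8 chondrocyte markers summed to 549 to 576 FPKM without and 155 to 164 FPKM with IL-1β in normal culture at 36 h. All 8 passed as lower there, where 41.5% of all genes did, with a median log2 change of -1.98. In co-culture with IL-1β at 36 h they summed to 165 to 170 FPKM. Against normal culture with IL-1β, 0 of the 8 passed as higher and 1 as lower, where 6.38% and 4.17% of all genes did. The enzymes together summed to 207 to 235.9 FPKM in normal culture and 334 to 356 FPKM in co-culture, both with IL-1β at 36 h. In normal culture at 36 h the 7 macrophage and myeloid genes, mostly Lyz2, summed to 48.1 to 57.0 FPKM without and 65.5 to 77.4 FPKM with IL-1β, and the 6 skeletal muscle genes to 111 to 129 FPKM and 167 to 180.1 FPKM. Of the 6 tested genes in each list, 3 passed as higher and 1 as lower there, where 25.9% and 41.5% of all genes did. In co-culture with IL-1β at 36 h these lists summed to 63.6 to 75.6 FPKM and 139.9 to 153 FPKM. At 72 h in normal culture the myeloid genes summed to 92.2 to 97.5 FPKM without and 133 to 151 FPKM with IL-1β. Lyz2 made up 70.4 to 78.1 FPKM of the former and 105 to 115 FPKM of the latter. Of the 6 tested myeloid genes, 2 passed as higher and 3 as lower with IL-1β there, where 23.1% and 40.3% of all genes did. Their median log2 change was -0.34, and Ptprc stayed under 1 FPKM in every library. The skeletal muscle genes, led by Acta1, summed to 23.9 to 25.8 FPKM and 49.6 to 56.0 FPKM in the same groups. Of 4 endothelial markers Pecam1, Cdh5 and Kdr stayed under 1 FPKM in every library. The part of these other cells in the members' values was not tested.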

How the data were processed

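The study measured poly(A) mRNA of chondrocytes in 24 libraries, 3 for each of 8 groups of culture, IL-1β and time, taken from the sample titles. The authors deposited 1 table of FPKM values per gene and library; per the submitters' processing notes the genome build was GRCm38. The aligner, counting tool, annotation and use of strand are not given in the sources used here. Depth is unknown: steps of 1 read could not be found in 17580 low values of 1020 genes, 9.65% of which came within 0.05 of a multiple of the lowest value of their gene, as 10% would by chance.

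From these values, log2(FPKM + 1) was fitted with limma 3.58.1 in R 4.3.3 (empirical Bayes with a trend), with all 24 libraries and 1 coefficient for each group, for the 12178 genes with at least 1 FPKM in at least 3 libraries. A pseudocount of 1 understates the change of low genes. The threshold was an adjusted p of 0.05 in each of 16 comparisons, by the Benjamini-Hochberg method over all tested genes. Groups overlap where the range of their libraries does. The fit was run on simulated data only for the IL-1β comparison in normal culture at 36 h, and the outcome is not reported here. Each simulated gene had the same spread in all libraries, so that run cannot speak to the calls at 72 h, where the spread differed between groups. Figures were drawn with matplotlib 3.10.9.

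The 10 genes, the related lists, the tests and the alternatives were chosen with earlier results of these data known. The text names all 10 genes, Atf4, up to 4 genes of each list with the largest change among those that passed in a comparison, and the 5 genes most like the members' mean; a gene that this rule names is not reported here. The alternatives were a pseudocount of 0.1, no filter or a filter at 5 FPKM, rescaling to TPM, median-of-ratios scaling, the compared groups only, limma library weights, the replicate number as a block, and leaving out each library. Same-numbered libraries deviated together, with correlations above 0.1 for every number, only for the co-culture effect with IL-1β at 72 h (0.364, 0.179 and 0.577); that comes from the data and not from the labels. No library was left out of the main analysis, and no 2 libraries of a group held identical values.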

Additional observations from a re-analysis of the deposited data

Results flagged for a closer look

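The IL-1β change differed between normal culture and co-culture at 36 h for 7 of the 10 enzymes by the interaction in limma. All 7 passed as positive, where 4.73% of tested genes did and 2.23% passed as negative. The interaction was 0.64 for Phgdh, 0.68 for Psat1, 0.56 for Psph, 0.57 for Shmt2, 0.67 for Mthfd2, 0.41 for Aldh1l2 and 0.44 for Asns on the log2(FPKM + 1) scale, positive values meaning a smaller fall in co-culture. Phgdh and Asns lost this call when most single libraries were left out.

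The IL-1β change also differed between the times for all 10 enzymes in both cultures. All passed as positive, where 23.7% of tested genes did in normal culture and 14.1% in co-culture. In the other direction 21.6% and 14.8% passed. In normal culture the change at 72 h exceeded that at 36 h by 1.11 for Phgdh, 0.89 for Psat1, 1.01 for Psph, 1.63 for Shmt2, 1.33 for Mthfd2, 0.79 for Aldh1l2, 0.94 for Asns, 0.88 for Cth, 0.43 for Pycr1 and 0.91 for Aldh18a1. In co-culture it did so by 0.66 for Phgdh, 0.50 for Psat1, 0.62 for Psph, 0.92 for Shmt2, 0.89 for Mthfd2, 0.65 for Aldh1l2, 0.71 for Asns, 1.02 for Cth, 0.31 for Pycr1 and 0.67 for Aldh18a1. Groups of 3 libraries were not tested for single outlying values.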

How the results depend on the processing

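No called change of any of the 10 enzymes reversed its direction under any alternative. Of 145 counts of members under the processing alternatives 138 stayed within 1.5 times, and of 120 counts with a library left out 111 did. With the compared groups only, the number of members passing went from 1 to 5 for co-culture without IL-1β at 36 h (all genes called went from 1885 to 3095), from 2 to 8 for the same at 72 h (414 to 1330), and from 10 to 0 for co-culture with IL-1β at 72 h, where no gene of the whole table passed. With library weights, whose estimation stopped before reaching its convergence tolerance, the number was 3 for co-culture without IL-1β at 36 h (3667 of all genes), 9 for the same at 72 h (2084), and 2 for the interaction at 72 h (1420 of all genes), where 0 had passed. Leaving out single libraries gave 1 to 2 members for co-culture without IL-1β at 72 h, 5 to 10 for co-culture with IL-1β at 72 h (5 without normal culture with IL-1β replicate 1) and 0 to 1 for the interaction at 72 h. The 1 was Shmt2 without normal culture with IL-1β replicate 1, Cth without its replicate 2 and Aldh1l2 without co-culture with IL-1β replicate 3. The cause of these shifts was not tested, though fits of fewer libraries have fewer degrees of freedom, and the residual SD was 0.167 in normal culture with IL-1β at 72 h, 0.119 in co-culture with IL-1β at 72 h and 0.0853 to 0.0994 in the other 6 groups.

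The replicate block over all libraries left every count of members as it was, 10 for co-culture with IL-1β at 72 h, the comparison whose same-numbered libraries deviated together, and changed no single call. A block within each time changed single calls of Shmt2, Asns, Cth and Aldh1l2 in the comparisons of 72 h with 36 h. With the block in a fit of only the groups of co-culture with IL-1β at 72 h and its normal culture, an alternative chosen after seeing the data, the count was 0. Rescaling to TPM moved the median IL-1β change of all genes at 72 h in normal culture from -0.08 to -0.20, and turned its 2809 higher and 4909 lower calls into 2134 and 6760 (3623 and 3872 under median-of-ratios scaling). The split of all calls also moved by over 10 percentage points under TPM for the IL-1β change of co-cultures at 72 h (2249 higher and 3729 lower to 1818 and 5641), and under median-of-ratios scaling for co-culture without IL-1β at 36 h (765 and 1120 to 894 and 761) and at 72 h (210 and 204 to 253 and 154), with IL-1β at 72 h (879 and 641 to 659 and 851) and the interaction at 72 h (205 and 174 to 110 and 262).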
